A study of Homo sapiens with 24 samples.

Results

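The circadian clock and PAR-bZIP genes, 10 in all, were examined in CD18/HPAF cells, a human pancreatic adenocarcinoma line. They were DBP, TEF and HLF of the PAR-bZIP family, PER1, PER2, PER3, CRY1 and CRY2 of the repressor arm, and NR1D1 and NR1D2, which encode the nuclear receptors REV-ERBα and REV-ERBβ. The genes were chosen from known clock components with the ISOX and untreated levels of this same experiment already in view, so their levels and ratios are given as a description and carry no test. All 10 were found in the deposited table, 1 row each of 30276 rows. The comparison was between cells given 1 µM ISOX for 48 h (12 samples), a histone deacetylase inhibitor known to act most strongly on HDAC6, and untreated cells (12 samples) of the same line, cultured in the same serum-containing medium. The paper describes ISOX as potent on HDAC3 and HDAC10 too. The labels name no vehicle for the untreated cells. The sample titles of each group carry a first number from 1 to 3 and a second from 1 to 4, and what each number marks is not stated, so the 12 samples may come from fewer separate cultures. The table held 1 FPKM value for each gene and group, pooled by the authors over the samples. FPKM is sequenced fragments assigned to a gene, divided by its transcript length and by the size of the library. No spread between replicates and no SD were thus available, and the depth behind a value is unknown. No test of a difference was run here, and the p-values of the authors' comparison were not used. In such bulk samples, fewer cells expressing a gene and less of its RNA per cell cannot be told apart.

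The mammalian clock is a feedback loop of transcription. CLOCK and BMAL1 bind E-box elements and activate the PER, CRY, REV-ERB and PAR-bZIP genes. PER and CRY proteins return to inhibit CLOCK-BMAL1, and the REV-ERB receptors bind RORE elements and silence BMAL1 through the corepressor NCOR1 and the deacetylase HDAC3, against ROR activators. DBP, TEF and HLF activate genes through D-box elements, which the repressor NFIL3 also binds. The clock runs cell-autonomously in most tissues, including cultured epithelial cells, where single cells drift out of phase unless they are synchronised. No synchronisation step or time of day is stated for the sequenced cultures in the sources used here, and with 1 time point a shift in phase and a shift in mean level cannot be told apart.

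Promoter windows of 6 genes are shown first, the 4 genes with the largest ratios (NR1D1, NR1D2, PER1 and DBP) and the PER2 and PER3 windows that hold a D-box although both genes were less than 1.5-fold apart between the groups. Each window runs from 250 bases before to 50 bases after an annotated start (RefSeq, GRCh38.p14), is written 5′ to 3′ on the gene's strand, and has motif matches in capitals.
NR1D1 (chr17:40100540-40100839, minus strand): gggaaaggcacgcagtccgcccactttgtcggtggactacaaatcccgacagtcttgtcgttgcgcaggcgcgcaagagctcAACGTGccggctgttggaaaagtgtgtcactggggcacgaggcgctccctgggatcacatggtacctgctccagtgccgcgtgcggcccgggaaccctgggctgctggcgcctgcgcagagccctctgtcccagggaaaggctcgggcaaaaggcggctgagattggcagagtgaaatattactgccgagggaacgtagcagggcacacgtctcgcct
NR1D2, downstream start (chr3:23945871-23946170, plus strand): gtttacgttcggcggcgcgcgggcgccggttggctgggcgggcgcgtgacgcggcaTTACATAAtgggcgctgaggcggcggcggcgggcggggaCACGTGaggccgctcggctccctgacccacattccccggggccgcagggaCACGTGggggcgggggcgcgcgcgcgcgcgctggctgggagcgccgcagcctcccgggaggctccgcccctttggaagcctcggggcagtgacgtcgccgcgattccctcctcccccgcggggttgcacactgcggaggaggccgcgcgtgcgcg
PER1 (chr17:8152355-8152654, minus strand): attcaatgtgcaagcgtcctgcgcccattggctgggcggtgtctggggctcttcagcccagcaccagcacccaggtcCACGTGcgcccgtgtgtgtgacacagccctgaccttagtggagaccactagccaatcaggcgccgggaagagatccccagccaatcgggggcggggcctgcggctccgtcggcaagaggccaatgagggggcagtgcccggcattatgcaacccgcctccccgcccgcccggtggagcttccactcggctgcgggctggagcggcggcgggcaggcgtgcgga
DBP (chr19:48637330-48637629, minus strand): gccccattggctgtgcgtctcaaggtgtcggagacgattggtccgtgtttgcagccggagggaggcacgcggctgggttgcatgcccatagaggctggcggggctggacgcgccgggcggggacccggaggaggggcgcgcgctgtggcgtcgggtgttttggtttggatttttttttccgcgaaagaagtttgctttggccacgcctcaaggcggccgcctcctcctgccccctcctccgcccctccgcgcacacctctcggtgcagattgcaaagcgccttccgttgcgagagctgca
PER2 (chr2:238288561-238288860, minus strand): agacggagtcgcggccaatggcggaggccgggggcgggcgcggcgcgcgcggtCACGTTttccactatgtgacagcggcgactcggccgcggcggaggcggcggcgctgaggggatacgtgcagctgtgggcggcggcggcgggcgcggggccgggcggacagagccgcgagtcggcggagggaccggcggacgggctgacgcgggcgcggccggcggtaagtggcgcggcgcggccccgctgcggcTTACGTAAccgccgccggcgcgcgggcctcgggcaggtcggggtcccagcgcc
PER3, upstream start (chr1:7784041-7784340, plus strand): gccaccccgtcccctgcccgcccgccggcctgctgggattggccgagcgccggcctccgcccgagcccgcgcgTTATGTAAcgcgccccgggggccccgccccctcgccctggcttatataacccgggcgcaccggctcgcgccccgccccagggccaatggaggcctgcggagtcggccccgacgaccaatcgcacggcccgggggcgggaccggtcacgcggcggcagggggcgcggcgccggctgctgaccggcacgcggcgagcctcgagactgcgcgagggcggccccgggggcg

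Matches were sought on both strands for the E-box (spelled CACGTG on either strand), its variant the E′-box (CACGTT, which the other strand reads as AACGTG), the D-box (TTATGTAA, which the other strand reads as TTACATAA, or the palindrome TTACGTAA), the RORE core (TAGGTCA, or TGACCTA on the other strand) and the cAMP response element (spelled TGACGTCA). The spellings of the D-box and the choice of the E′-box were settled after the member windows had been seen. All 10 genes matched the sequence table, with 15 windows, since TEF, HLF, PER3, CRY2 and NR1D2 have 2 annotated starts each. NR1D2, with 2 E-boxes beginning 155 and 105 bases before its downstream start and a D-box at 194, held the most matches. The window of its upstream start held none of the 5 motifs. PER1 held an E-box 173 bases before its start, and TEF 1 E-box before each of its starts, at 195 and 193 bases. An E-box was present in 4 of the 15 member windows and in 7.26% of all 35116 windows. D-boxes were present in the windows of PER2 (beginning 3 bases before the start), PER3 (177 bases before) and NR1D2, or 3 of 15 windows against 1.01% of all windows, and an E-box together with a D-box stood in 20 of the 35116 windows. The E′-box was found for PER2, CRY1, CRY2 and NR1D1 (4 of 15 member windows, 5.34% of all), and the RORE core for CRY2 alone among the members (1.85% of all). HLF held a cAMP response element 7 bases before its upstream start (1.85% of all). In the DBP window none of the 5 motifs was matched, which says only that these letters are not in this stretch; in the mouse, CLOCK and BMAL1 bind Dbp also within its introns. Member windows had a median GC content of 69.0% and a median of 30 CpG dinucleotides, against 58.7% and 14 over all windows.

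**Figure D1:**
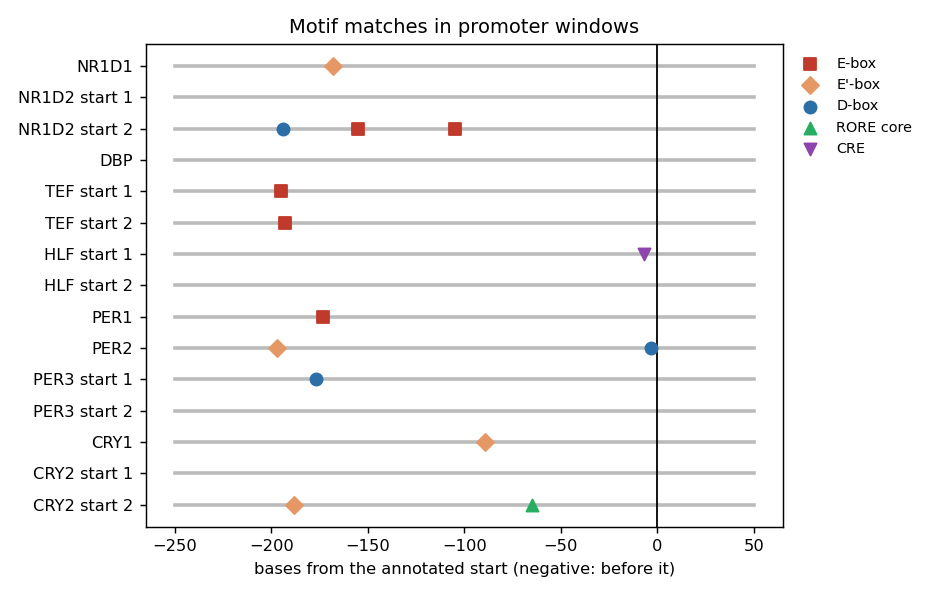
Positions of motif matches in the 15 promoter windows of the 10 genes, in bases from the annotated start (x axis, negative before the start), with 1 line per window and 1 symbol per match, placed at its first base. NR1D2 has 3 matches before its downstream start, PER2 and the downstream window of CRY2 have 2 each, and DBP has none.

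On the deposited scale, ISOX-treated CD18/HPAF cells held more REV-ERB, DBP and PER1 transcript than untreated cells. PER2, PER3 and both cryptochromes lay close to the general level of change. Both REV-ERB genes were about 2-fold apart: NR1D1 was at 9.55 FPKM in ISOX-treated cells and 4.40 FPKM in untreated cells, and NR1D2 at 20.8 FPKM in ISOX-treated cells and 10.8 FPKM in untreated cells. PER1, DBP and TEF were 1.88-fold, 1.62-fold and 1.43-fold higher. PER3 and CRY2 were only 1.07-fold and 1.06-fold higher, and HLF was listed at 0 in both groups. Of the 9 genes with a mean of at least 1 FPKM over both groups, 4 (NR1D1, NR1D2, PER1 and DBP) were at least 1.5-fold higher. None was at least 1.5-fold lower. No count at an unadjusted p is given, since no test was run here and the authors' p-values were not used. Each of the 9 was at 2.17 FPKM or more in both groups, so none passed the minimum through 1 group alone.

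The table as a whole was shifted upwards. Of 11915 rows with a mean of at least 1 FPKM, 12.4% were at least 1.5-fold higher in ISOX-treated cells and 2.25% at least 1.5-fold lower, and the median log2 ratio of ISOX over untreated was 0.21, or 1.16-fold. Of the calls, 84.6% were higher. Measured from this median, 5.59% of rows were at least 1.5-fold higher and 4.90% at least 1.5-fold lower, so that 53.3% of calls were higher. Among the 6817 rows whose mean lay within the range of the members (2.46 to 22.6 FPKM), 10.0% were at least 1.5-fold higher and 1.75% lower. Since the genes were chosen with these ratios in view, nothing is read from their count beside these shares. Duct and epithelial markers were present (KRT7, KRT8, KRT18, KRT19, EPCAM, CDH1 and MUC1, 7 of 7 listed, with means of both groups from 83.7 to 3148 FPKM and sums of 7699 FPKM in ISOX-treated and 6364 FPKM in untreated cells). KRT7 alone of them was 1.5-fold higher, at 1451 FPKM in ISOX-treated and 844 FPKM in untreated cells. The acinar and endocrine genes PRSS1, CPA1 and GCG were at 0 in both groups and the leukocyte, endothelial and fibroblast genes PTPRC, PECAM1 and COL3A1 were each at 0.103 FPKM or below. COL1A1 was at 2.75 and 2.48 FPKM in ISOX-treated and untreated cells, CD68, which many cells with lysosomes transcribe, at 26.2 and 20.1 FPKM, and a row that joins INS with IGF2 at 1.22 and 0.996 FPKM. The part of other cell types in the clock gene values was not tested.

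**Figure D2:**
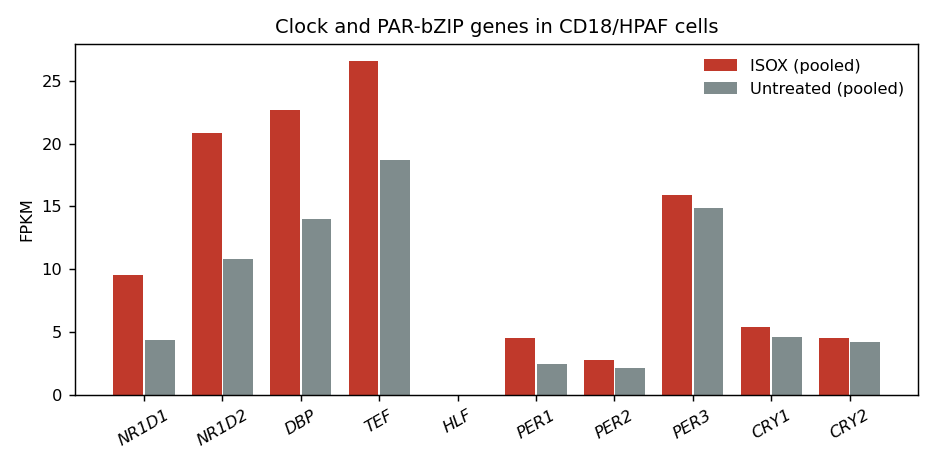
FPKM (y axis) of each clock and PAR-bZIP gene (x axis) in ISOX-treated cells (red) and untreated cells (grey), each bar a single pooled value without an error. NR1D1 is at 9.55 in ISOX-treated and 4.40 in untreated cells, PER3 at 15.9 and 14.9, and HLF at 0 in both.

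NR1D1, the gene of REV-ERBα, lies on chromosome 17 from 40092787 to 40100725 on the minus strand (hg38; this and the following gene positions are from GENCODE 29). Its log2 ratio of 1.12 was higher than that of 97.9% of rows past the minimum, and 0.91 when measured from the median of all rows. It was the single gene of the set beyond 2-fold. Exons of NR1D1 and of THRA, a thyroid hormone receptor gene on the other strand, overlap over 263 bases, which is 9.49% of the NR1D1 exon sequence. THRA was at 15.0 FPKM in ISOX-treated cells and 13.5 FPKM in untreated cells, a log2 ratio of 0.15. The sources used here do not say whether the counting used strand, so reads of the shared stretch cannot be told apart.

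NR1D2, the gene of REV-ERBβ, lies on chromosome 3 from 23945260 to 23980618 and shares no exon sequence with another annotated gene. NKIRAS1, which overlaps it on the other strand outside the exons, was at 4.38 FPKM in ISOX-treated cells and 2.59 FPKM in untreated cells, a log2 ratio of 0.76. The log2 ratio of NR1D2 was 0.95, above that of 96.5% of rows, and 0.74 from the median. Added up, both REV-ERB transcripts came to 30.4 FPKM in ISOX-treated cells and 15.2 FPKM in untreated cells, a log2 ratio of 0.998. Their proportions barely differed, with NR1D2 at 68.6% of the sum in ISOX-treated cells and 71.0% in untreated cells. The ratio was 2.17 for NR1D1 and 1.93 for NR1D2.

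DBP, an activator of D-box genes and one of the most strongly cycling transcripts of the liver, lies on chromosome 19 from 48630030 to 48637438. Its 22.7 FPKM in ISOX-treated cells and 14.0 FPKM in untreated cells gave a log2 ratio of 0.70, above that of 92.0% of rows. Measured from the median of all rows its log2 ratio was 0.49, short of 1.5-fold. DBP exons share 661 bases, or 10.1%, with exons of SPHK2, a sphingosine kinase gene on the other strand, which was at 22.5 FPKM in ISOX-treated and 23.1 FPKM in untreated cells. SPHK2 thus had a log2 ratio of −0.04. For another pancreatic cancer line, MiaPaCa2, the paper lists DBP among the genes that ISOX lowered. In that list the genes were shared with a public expression signature of ISOX and related drugs. The MiaPaCa2 direction is opposite to the one seen here, and neither the MiaPaCa2 data nor the signature was examined.

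TEF was the most abundant of the 10 transcripts in both groups, at 26.6 FPKM in ISOX-treated cells and 18.7 FPKM in untreated cells. It encodes a second PAR-bZIP activator, lies on chromosome 22 from 41367333 to 41399326, and had a log2 ratio of 0.51, above that of 83.3% of rows but short of 1.5-fold. The third paralogue, HLF, which is known in liver and in blood stem cells, was listed at 0 in both groups, and no ratio was formed. The PAR-bZIP sum was 49.3 FPKM in ISOX-treated cells and 32.7 FPKM in untreated cells, or 1.51-fold, shared nearly evenly between DBP (46.0% in ISOX-treated and 42.8% in untreated cells) and TEF.

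PER1 had the highest ratio of the PER genes, though the authors' comparison marked it as having too few alignments to be tested. PER1, a repressor of CLOCK-BMAL1 whose gene also answers to glucocorticoids and to cAMP signaling, was at 4.55 FPKM in ISOX-treated cells and 2.41 FPKM in untreated cells, a log2 ratio of 0.91 that exceeded those of 96.1% of rows (0.70 from the median). PER2, at 2.75 FPKM in ISOX-treated and 2.17 FPKM in untreated cells, was the least abundant detected gene of the set and had a log2 ratio of 0.34. PER3, the most abundant of the 3, was at 15.9 FPKM in ISOX-treated and 14.9 FPKM in untreated cells. Its log2 ratio of 0.10 was above that of 34.4% of rows, so that it lay 0.11 below the median (−0.11). Of the PER sum of 23.2 FPKM in ISOX-treated and 19.4 FPKM in untreated cells, PER3 made up 68.5% in ISOX-treated and 76.4% in untreated cells, and PER1 19.6% in ISOX-treated and 12.4% in untreated cells.

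PER1 lies on chromosome 17 from 8140472 to 8156506, PER2 on chromosome 2 from 238244038 to 238290102 and PER3 on chromosome 1 from 7784320 to 7845177. PER3 shares 16.7% of its exon sequence with genes on the other strand, chiefly 868 bases with UTS2, which was listed at 0.0661 FPKM in ISOX-treated cells and 0 in untreated cells. For PER1 the shared part was 1.54%, which includes the microRNA gene MIR6883, listed at 0 in both groups.

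The cryptochromes, which encode the main inhibitors of CLOCK-BMAL1, had the smallest ratio of the 4 families. CRY1, on chromosome 12 from 106991364 to 107093829, was at 5.37 FPKM in ISOX-treated cells and 4.62 FPKM in untreated cells. Its log2 ratio of 0.22 was 0.01 above the median of all rows. CRY2, on chromosome 11 from 45847118 to 45883248, was at 4.51 FPKM in ISOX-treated cells and 4.24 FPKM in untreated cells, with a log2 ratio of 0.09 that is −0.12 from the median. The CRY sum was 1.11-fold higher. PER3, CRY1 and CRY2 were above untreated on the deposited scale, but PER3 and CRY2 were below it after centring on the median, all 3 were below it after dividing each group by its upper quartile, and PER2 joined them after dividing by the FPKM sum.

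**Figure D3:**
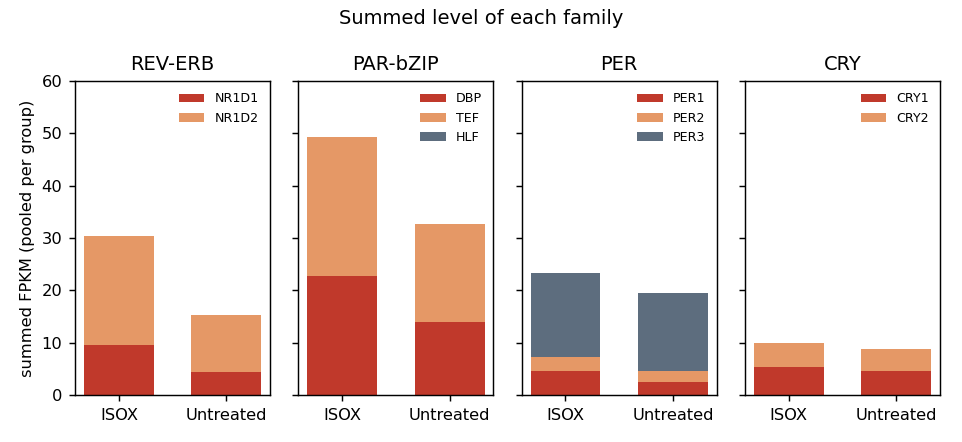
Summed FPKM of each family (y axis), stacked by gene, in ISOX-treated cells (left bar of each panel) and untreated cells (right bar), each a pooled value with no error. The REV-ERB sum is 30.4 and 15.2, the PAR-bZIP sum 49.3 and 32.7, and the PER sum 23.2 and 19.4 FPKM.

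Taking the 10 genes as a whole, the summed level was 113 FPKM in ISOX-treated cells and 76.2 FPKM in untreated cells, 1.48-fold. Scaling changed which genes passed 1.5-fold. With each group divided by its FPKM sum, which was 1.31-fold larger in the ISOX group, NR1D1 alone passed, the median log2 ratio of all rows was −0.18 and 25.4% of calls over all rows were higher. With each group divided by its upper quartile, NR1D1, NR1D2 and PER1 passed, and 46.9% of calls over all rows were higher. In the table's status column 6 genes were marked as having enough alignments to be tested, and HLF, PER1, PER2 and CRY2 as having too few.

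**Figure D4:**
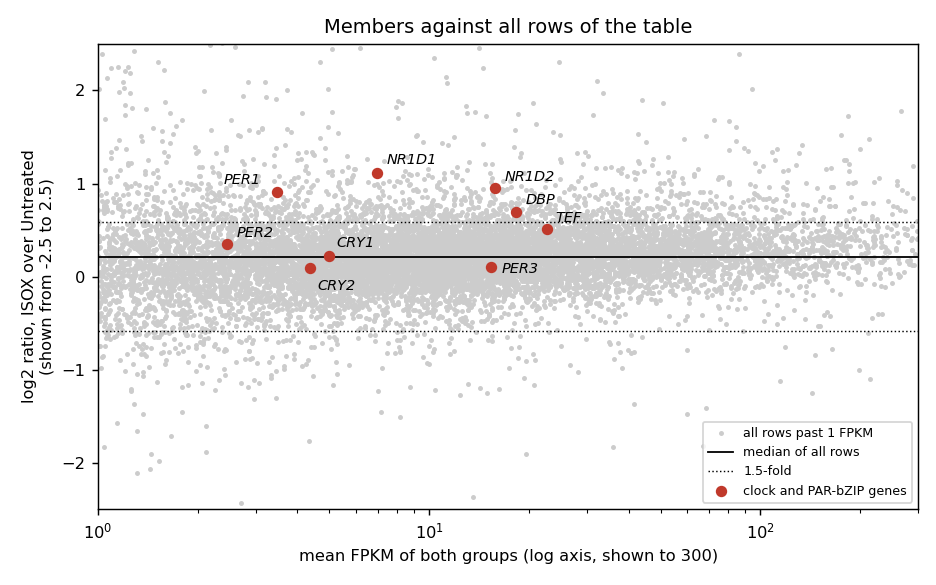
Log2 ratio of ISOX over untreated (y axis) against the mean FPKM of both groups (x axis, log scale) for rows with a mean of at least 1 FPKM (grey) and for the 9 clock and PAR-bZIP genes past that minimum (red), with the median of all rows (solid line, 0.21) and 1.5-fold (dotted lines). NR1D1, NR1D2, PER1 and DBP lie above the upper dotted line, TEF just below it, CRY1 on the median, and PER3 and CRY2 below it; rows beyond the axes are not drawn.

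The wider clock pathway was examined with 7 further lists. Over all rows past the minimum, 12.4% were at least 1.5-fold higher and 2.25% at least 1.5-fold lower. Nothing is read from the counts of these lists beside those shares. Of 6 genes of the activating arm, 4 were past the minimum and none was 1.5-fold higher or lower (median log2 ratio 0.27). ARNTL, the gene of BMAL1 and the classic target of REV-ERB repression, was at 3.25 FPKM in ISOX-treated and 3.24 FPKM in untreated cells. The log2 ratio of ARNTL was 0.0046, or −0.21 when measured from the median of all rows. Its partner CLOCK was at 7.58 FPKM in ISOX-treated and 5.45 FPKM in untreated cells. NPAS2, a paralogue of CLOCK, was at 2.32 FPKM in ISOX-treated and 2.14 FPKM in untreated cells. ARNTL2, a BMAL1 paralogue, was at 9.58 FPKM in ISOX-treated and 7.17 FPKM in untreated cells. RORA, a nuclear receptor that activates through ROREs, was at 0.0689 FPKM in ISOX-treated and 0.108 FPKM in untreated cells, and RORB was listed at 0 in both groups. The summed PER and CRY level was 1.46 times that of CLOCK, NPAS2, ARNTL and ARNTL2 in ISOX-treated cells and 1.57 times in untreated cells.

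Among 4 other repressors of the loop, 1 was at least 1.5-fold higher. This was CIART, which encodes a repressor of CLOCK-BMAL1, at 3.26 FPKM in ISOX-treated cells and 1.30 FPKM in untreated cells. Its log2 ratio of 1.32 was larger than that of any of the 10 genes above. The mean of CIART over both groups was low, at 2.28 FPKM, above that of only 11.9% of rows past the minimum. The CIART window held 3 E-boxes, which 0.0940% of all windows do. In the further lists, windows of BHLHE40, BHLHE41, TIMELESS, SIRT1 and WDR5 also held E-boxes, and none of these genes passed 1.5-fold. The part of E-boxes in the ratios was not tested. BHLHE40 and BHLHE41, E-box repressors also known as DEC1 and DEC2, were at 24.2 and 104.0 FPKM in ISOX-treated cells and 16.2 and 82.7 FPKM in untreated cells, with log2 ratios of 0.58 and 0.33. NFIL3, the D-box repressor, was at 3.46 FPKM in ISOX-treated cells and 3.26 FPKM in untreated cells. The PAR-bZIP sum was 14.2 times the NFIL3 level in ISOX-treated cells and 10.0 times in untreated cells.

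Transcripts of proteins that modify or assist the clock proteins were less than 1.5-fold apart between the groups where they were past the minimum. Of 15 kinases, phosphatases, ubiquitin ligase parts and partners of PER and CRY, 13 were past the minimum and none passed 1.5-fold in either direction (log2 ratios from −0.07 to 0.53, median 0.17). PPP1CA and PPP1CC, catalytic subunits of protein phosphatase 1, were the most abundant, with log2 ratios of 0.03 and 0.07. Of 12 corepressors and chromatin partners none passed 1.5-fold either (log2 ratios from −0.19 to 0.46, median 0.04). HDAC3, the deacetylase that REV-ERB recruits, was at 30.6 FPKM in ISOX-treated cells and 34.9 FPKM in untreated cells, and NCOR1 at 12.9 FPKM in ISOX-treated and 9.42 FPKM in untreated cells. HDAC1 and NONO, the highest of the list, had log2 ratios of −0.05 and 0.27.

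Of 8 clock-controlled output genes, 7 were past the minimum, 1 was higher and 1 lower by at least 1.5-fold (median log2 ratio 0.37). TSC22D3, which encodes the glucocorticoid-induced leucine zipper protein GILZ, was at 78.2 FPKM in ISOX-treated and 37.6 FPKM in untreated cells. CDKN1A, the gene of the cell cycle inhibitor p21, was at 8.64 FPKM in ISOX-treated cells and 19.8 FPKM in untreated cells, a log2 ratio of −1.20 below which only 0.344% of rows lay. KLF9 did not reach the minimum, at 1.36 FPKM in ISOX-treated and 0.401 FPKM in untreated cells. Among 8 genes of the glucocorticoid receptor and CREB pathways, which act on PER1, 7 were past the minimum and CREM alone was 1.5-fold higher, at 10.0 FPKM in ISOX-treated and 5.70 FPKM in untreated cells. NR3C1, the glucocorticoid receptor gene, was at 10.3 FPKM in ISOX-treated and 8.03 FPKM in untreated cells.

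Genes that PAR-bZIP factors drive in mouse tissues lay mostly below the median of all rows. Of 7 listed, 6 were past the minimum and 5 of these were below that median. None was 1.5-fold higher and 1 was 1.5-fold lower, with a median log2 ratio of −0.15 against 0.21 for all rows. The lower gene was CYP2B6, a cytochrome P450 gene, at 2.22 FPKM in ISOX-treated and 3.63 FPKM in untreated cells. POR, which supplies electrons to the P450 enzymes, was at 70.8 FPKM in ISOX-treated and 63.2 FPKM in untreated cells, and ALAS1, the first enzyme of heme synthesis, at 55.3 FPKM in ISOX-treated and 41.0 FPKM in untreated cells. PDXK, pyridoxal kinase, had a log2 ratio of −0.05.

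**Figure D5:**
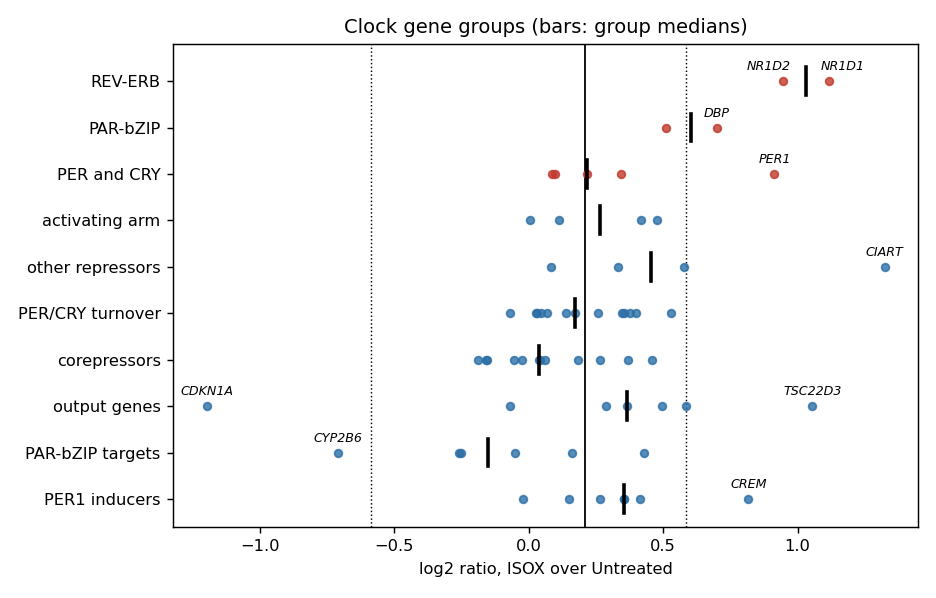
Log2 ratio of ISOX over untreated (x axis) for each gene past 1 FPKM in the 3 groups of members (red) and the 7 further lists (blue), with group medians (black bars), the median of all rows (solid line) and 1.5-fold (dotted lines). The names mark genes beyond 1.5-fold, among which CIART has the highest ratio (1.32) and CDKN1A the lowest (−1.20).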

How the data were processed

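RNA of 12 ISOX-treated and 12 untreated CD18/HPAF samples was sequenced by the authors, and groups were taken from the treatment label. Per the submitters' processing notes, Bowtie, TopHat, Cufflinks and Cuffdiff were run on hg38; no source read here states their versions, the strand setting or any filter. The deposited FPKM values are pooled by the authors to 1 value per gene and group. The fold changes, p-values and q-values of the authors' comparison in the same table were not used. No label says which samples came from separate cultures.

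Rows were matched on the gene name split at commas. Log2(ISOX/untreated) was computed with no pseudocount, for rows with a mean of both groups of at least 1 FPKM, and 1.5-fold counted as higher or lower. The calls were tested on simulated data. The members and lists were chosen with earlier results of these data known. Of each further list, genes past 1.5-fold were named, otherwise the 2 with the highest mean; ARNTL, NPAS2, RORA, RORB, NFIL3, BHLHE40, BHLHE41, HDAC3, NCOR1, KLF9, NR3C1, POR, ALAS1 and PDXK were also named for their role, after their values were seen. A further gene of the activating arm is not reported here. Gene positions and exon overlaps came from GENCODE 29 and promoter windows from RefSeq (GRCh38.p14). Alternatives varied the pseudocount, minimum, scaling and fold. Python 3.11.15, numpy 2.4.6, pandas 2.3.3 and matplotlib 3.10.9 were used.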

Additional observations from a re-analysis of the deposited data

How the results depend on the processing

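No paired analysis was possible because the table holds 1 pooled FPKM value per group, and for the same reason no replicate could be left out. The 4 members at least 1.5-fold higher remained NR1D1, NR1D2, PER1 and DBP with a pseudocount of 0.1 or 1 FPKM and with no minimum. The count was 1 when each group was divided by its FPKM sum and 1 at 2-fold, NR1D1 both times, and no member was lower under any of the 9 alternatives. DBP had a log2 ratio of 0.49 after centring on the median, 0.31 after dividing by the FPKM sum and 0.45 after dividing by the upper quartile. PER1 had 0.53 and NR1D2 0.56 after dividing by the FPKM sum. The median log2 ratio of the members was 0.70 in place of 0.51 with a minimum of 5 FPKM, which kept 5 members. Of 53 genes of the further lists past the minimum, 3 were higher and 2 lower, against 12.4% and 2.25% of all rows. Higher genes numbered 5 of 57 with no minimum, against 16.9% of all rows. At a log2 threshold of 0.32 they numbered 21 of 53, against 34.9% of all rows. Lower genes numbered 1 with a pseudocount of 1 FPKM (1.26% of all rows) and 1 with a minimum of 5 FPKM (1.17%). They numbered 1 at 2-fold (0.596%) and 4 after dividing by the FPKM sum (9.58%). Over all rows, 1474 were higher and 268 lower, and under the alternatives 356 to 4155 were higher and 71 to 1252 lower. The cause of these differences was not tested. Without depth or values per replicate, no difference of a single gene was set against an error here.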
